A study of Mus musculus with 6 samples.

Results

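Of the 52899 barcodes deposited for CD45+ cells of B16-F10 tumors, 180 had more than 4000 detected genes and passed every other limit of an immune gate. The gate required at most 10% of the UMIs (unique molecular identifiers, the counted RNA molecules) to come from mitochondrial genes and at least 1 UMI of Ptprc, the gene of CD45. It further required fewer than 10 UMIs over the melanoma genes Pmel, Mlana, Dct and Tyrp1, and at most 1 UMI over the T cell genes Cd3d, Cd3e and Cd3g and at most 1 over the B cell genes Cd79a, Cd79b and Ms4a1. These barcodes are called members here. The members were chosen by measured values, so their gene number and their levels of these 11 genes describe the choice and are not results.

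The series compared 3 αPD-1 samples with 3 αPD-1 + corin samples, called the combination here. All mice were female C57BL/6, 6 to 10 weeks old, and carried grafts of B16-F10, a mouse melanoma cell line, so the tumors stem from 1 transplanted line. Both groups were given 150 μg of αPD-1 antibody, which blocks the PD-1 receptor of T cells, 3 times a week from day 7 after grafting. The combination group was also given daily corin, 200 μg per mouse from day 6, an inhibitor of the CoREST complex of the demethylase LSD1, the deacetylases HDAC1 and HDAC2 and the scaffold RCOR1. With 10 mice per arm and no label that ties a sample to a mouse, p-values measure only the spread between these samples. Tumor suspensions were frozen and thawed, and CD45+ cells were taken with magnetic beads before droplet capture. The libraries held between 52281422 and 84276739 UMIs in 6433 to 13228 barcodes. Across libraries 299 barcodes occurred more than once, and 1 of them belonged to a member.

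An upper limit on genes per barcode is a customary guard against doublets, droplets that caught more than 1 cell, because their RNA adds up. The same limit also takes out large cells and cells in division, which hold more RNA. Macrophages of tumors are known for the complement subunits C1qa, C1qb and C1qc and for lysozyme (Lyz2). Type 1 conventional dendritic cells (cDC1) carry the chemokine receptor Xcr1 and much MHC class II such as H2-Ab1, and neutrophils are rich in the calcium-binding proteins S100a8 and S100a9. Mki67 and Top2a mark cells in the late phases of the cell cycle.

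The steps of the gate show what stands above 4000 genes in these libraries. Of 8248 barcodes above 4000 genes, 8227 passed the mitochondrial limit and 2543 of these had a Ptprc UMI. The melanoma limit left 1929, the Cd3 limit left 284 and the B cell limit left 180. Most barcodes above 4000 genes thus had no Ptprc UMI or had T cell transcripts, and the members were the remainder. Their number was 14, 54 and 7 in αPD-1 replicates 1, 2 and 3 and 37, 57 and 11 in αPD-1 + corin replicates 1, 2 and 3. Replicate 2 of each group gave the most members, and the groups overlapped.

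Members made up a small share of the barcodes that passed the other limits of the gate with at least 600 genes. The share was 0.903%, 3.60% and 0.486% with αPD-1 alone and 0.837%, 2.41% and 0.577% with the combination. The means were 1.66% ± 1.69 and 1.27% ± 0.992 (SD, n = 3 each), which differed by less than the spread between samples (two-sided exact permutation test, p = 0.8, where 3 samples against 3 cannot give less than 0.1). Without αPD-1 replicate 2 the difference turned to 0.580 percentage points higher with corin. Taken over all barcodes with at most 10% mitochondrial UMIs, the share ran from 0.111% to 1.06% with αPD-1 alone and from 0.144% to 0.752% with the combination (exact permutation test, p = 0.9). A difference in how often immune barcodes exceeded 4000 genes was therefore not detectable with these samples.

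The members held between 118644 and 1245663 UMIs per sample in sum, and a median of 15404 to 19308.5 UMIs per member. Their gene number ran from 4002 to 7810. The 54 members with 4001 to 4200 genes had a median of 34.9 C1q UMIs (C1qa, C1qb and C1qc) per 10000 UMIs. The 90 barcodes just outside the limit, with 3801 to 4000 genes, had 70.0. C1q-positive barcodes, with at least 10 such UMIs per 10000, made up 70.4% just inside and 76.7% just outside. The barcodes next to the limit on either side were therefore mostly C1q-positive.

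Clustering of the 180 members gave 4 groups of barcodes. The clusters are described by their genes with no test, since the clusters were made from the same barcodes. A Macrophage-like cluster held 75 members and was led by Lipg, the endothelial lipase, the 3 C1q genes, the receptor gene Trem2 and Ms4a7. Lipg was seen in only 10.7% of these members, against 98.7% to 100% for the C1q genes. All 75 had at least 2 UMIs of Tyrobp, an adaptor of myeloid receptors, and at least 2 UMIs of C1q. Its pooled level was 29.2 UMIs of C1qa and 42.2 of Lyz2 per 10000 UMIs, against 7.44 of H2-Ab1 and 0.919 of S100a9.

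A cDC1-like cluster of 17 members was led by Xcr1, followed by Sept3, Cd8a, Flt3, the receptor that dendritic cells need to develop, Wdfy4, a gene required for cross-presentation, and the double-stranded RNA sensor Tlr3. All 17 members had a UMI of H2-Ab1, at 74.8 UMIs per 10000, the highest pooled level among the 4 clusters. C1qa was at 0.395 and Lyz2 at 8.63 UMIs per 10000. The summed MHC class II list reached 440.9 UMIs per 10000 in this cluster and 53.9 in the Macrophage-like cluster.

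A cluster of 42 members was led by S100a8, S100a9, Retnlg, Ppbp, Cxcl2, Cxcl3 and, further down, Il1b. Cxcl2 and Cxcl3 are chemokines that attract neutrophils, and Il1b is the inflammatory cytokine interleukin 1 beta. It was left unnamed because 27 of its 42 members had at least 2 UMIs of S100a8 and S100a9 together with at least 2 UMIs of C1q, a rule set after the data were seen. Without that rule its markers would have named it Neutrophil-like. The limits for a name were met by 9 of 9 neutrophil, 6 of 9 monocyte and 4 of 12 macrophage markers. It had 53.8 UMIs of Lyz2, 36.0 of H2-Ab1 and 7.66 of C1qa per 10000. The neutrophil chemokine receptor gene Cxcr2 was seen in 52.4% of its members and in 2.67% of Macrophage-like members, and Csf3r, the receptor of granulocyte colony-stimulating factor, in 61.9% and 40.0%. It is called the S100a9/Il1b cluster here, after its leading genes, which were at or near 0 in its 4 members from αPD-1 samples. In αPD-1 replicates 1 and 2 these had 0 and 0 UMIs of S100a9 and 0 and 0.332 of Il1b per 10000, against 26.8 and 59.1 of S100a9 and 8.50 and 13.5 of Il1b in αPD-1 + corin replicates 1 and 2.

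S100a8 and S100a9 need to be read beside their level in other barcodes of the same libraries. In barcodes with 600 to 4000 genes and at least 2 Cd3 UMIs, T cell barcodes that should lack these genes, S100a8 and S100a9 together stood at 0.572, 0.148 and 0.221 UMIs per 10000 with αPD-1 alone. With the combination they stood at 34.1, 70.3 and 3.52. The S100a9/Il1b cluster had 46.5 and 92.0 in αPD-1 + corin replicates 1 and 2, and none of its members came from replicate 3. The level in the cluster was thus less than 1.5 times that of T cell barcodes in the same 2 libraries. Macrophage-like members of these libraries had less than the T cell barcodes, with 0.484 and 5.68 UMIs per 10000. In UMIs per barcode the cluster had 75.3 and 173, against 18.1 and 45.1 in T cell barcodes. How much of the S100a8 and S100a9 of the members was RNA from outside the cell was not tested.

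The leading genes of the fourth cluster went against the name immune. Its 46 members, called Fibroblast-like, were led by the collagen genes Col3a1, Col1a1 and Col1a2, the matrix protein Sparc, the acute-phase protein Saa3 and the proteoglycans Dcn and Bgn. Col1a1 stood at 73.3 UMIs per 10000 in this cluster and at 0 in the Macrophage-like and S100a9/Il1b clusters, with 0.0329 in the cDC1-like cluster. Of the 46 members, 11 met the gate with a single Ptprc UMI, against 0 in each other cluster. The median was 3.5 Ptprc UMIs, against 8 in Macrophage-like, 11.5 in S100a9/Il1b and 12 in cDC1-like members. These values describe the gate and were not tested.

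Most Fibroblast-like members also held myeloid transcripts. At least 2 collagen UMIs (Col1a1, Col1a2 and Col3a1) were seen in 43 of the 46, at least 2 Tyrobp UMIs in 42, and both in 40. As a description only, since Ptprc is a gene of the gate, barcodes above 4000 genes with at least 10 collagen UMIs per 10000 were split by Ptprc. Among those with a Ptprc UMI, 2, 5 and 0 with αPD-1 alone and 19, 11 and 3 with the combination, between 80% and 100% had at least 2 UMIs of the myeloid genes Tyrobp, Fcer1g and Cd68. Among the 18, 26 and 23 and the 77, 71 and 17 without a Ptprc UMI, 0% to 11.8% did. The first share was above the second in each of the 5 samples that had both.

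**Figure D1:**
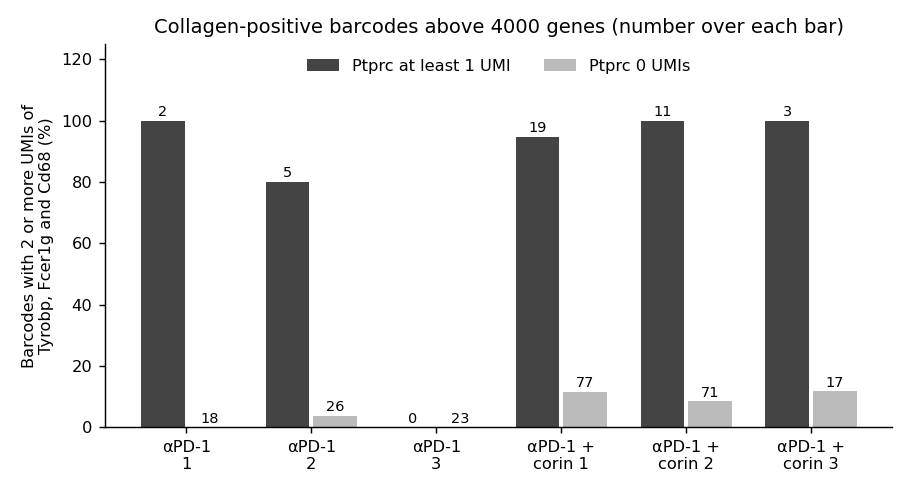
Share of collagen-positive barcodes above 4000 genes (%) that had at least 2 UMIs of Tyrobp, Fcer1g and Cd68, by sample, for barcodes with (dark) and without (light) a Ptprc UMI. The number over each bar is the number of barcodes, and the dark bars reach 80% or more in every sample with such barcodes while the light bars stay at or under 11.8%.

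Doublet scores fell unevenly over the clusters. The threshold that Scrublet chose itself marked 0 of the 180 members and 1 of 52899 barcodes, so it was not used. Among the highest scores, taken at 0.4% per 1000 barcodes of a library, were 24 members. Of these, 14 were Fibroblast-like (of 46), 8 were in the S100a9/Il1b cluster (of 42), and 1 each was Macrophage-like and cDC1-like. None came from an αPD-1 sample, while they made up 35.1%, 15.8% and 18.2% of the members in αPD-1 + corin replicates 1, 2 and 3. The αPD-1 libraries held 6433 to 7000 barcodes and the αPD-1 + corin libraries 9637 to 13228, so a larger share of the latter counted as high. The part of doublets in the differences between the groups was not tested.

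The make-up of the members differed between the groups in 3 of the 4 clusters, in that their samples did not overlap. Macrophage-like members were 8 of 14, 40 of 54 and 4 of 7 with αPD-1 alone, or 57.1%, 74.1% and 57.1%. They were 2 of 37, 16 of 57 and 5 of 11 with the combination, or 5.41%, 28.1% and 45.5%. The mean share was 62.8% ± 9.78 with αPD-1 and 26.3% ± 20.1 with αPD-1 + corin (SD, n = 3 each; exact permutation test, p = 0.1, and 0.133 as a p adjusted for 4 clusters). All αPD-1 samples lay above all αPD-1 + corin samples.

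Fibroblast-like members went the other way. They were 2, 6 and 0 of the members with αPD-1 alone, or 14.3%, 11.1% and 0%, and 19, 14 and 5 with the combination, or 51.4%, 24.6% and 45.5%. The means were 8.47% ± 7.50 and 40.5% ± 14.1 (SD, n = 3 each), and all αPD-1 + corin samples lay above all αPD-1 samples (exact permutation test, p = 0.1, adjusted p = 0.133). The 0 of 7 members in αPD-1 replicate 3 allows a share of up to 35.4% by its 95% Wilson interval, which covers counting error only.

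The cDC1-like share was 21.4%, 9.26% and 42.9% with αPD-1 alone and 0%, 8.77% and 9.09% with the combination. The groups did not overlap, with means of 24.5% ± 17.0 and 5.95% ± 5.16, although αPD-1 replicate 2 lay only just above the combination samples (exact permutation test, p = 0.1, adjusted p = 0.133). Its counts were small, at 3, 5 and 3 members against 0, 5 and 1. The S100a9/Il1b cluster held 7.14%, 5.56% and 0% of the members with αPD-1 and 43.2%, 38.6% and 0% with αPD-1 + corin, and the groups overlapped because of replicate 3 (exact permutation test, p = 0.4). The exact test cannot give a p under 0.1 for any of these shares. edgeR on the numbers of members per cluster, an alternative, gave unadjusted p-values of 0.022 for the S100a9/Il1b, 0.051 for the Fibroblast-like, 0.076 for the Macrophage-like and 0.13 for the cDC1-like cluster, and none passed after adjustment (0.090 to 0.13). The S100a8 and S100a9 level of T cell barcodes and the share of top doublet scores moved with the groups, and their part in the shares was not tested.

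**Figure D2:**
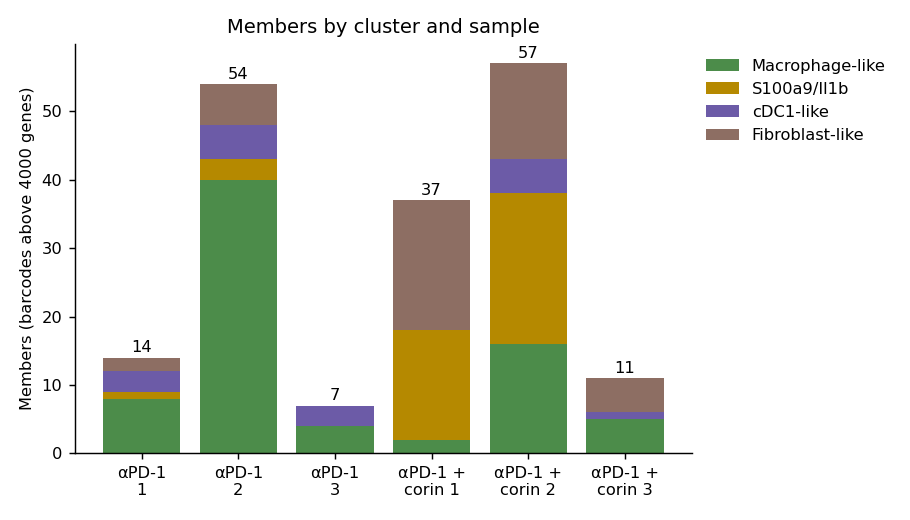
Number of members (barcodes above 4000 genes that passed the immune limits) in each sample, split by cluster, with the total over each bar. Macrophage-like members were 52 of the 75 members of the αPD-1 samples and 23 of the 105 members of the combination samples.

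Levels of the lineage genes over all members separated the groups for C1qa but not for Lyz2 or H2-Ab1. C1qa over all members was 18.4, 25.7 and 16.0 UMIs per 10000 with αPD-1 alone and 8.45, 7.66 and 10.0 with the combination. The groups did not overlap, as was so in 18.2% of the 6355 genes tested below. In that edgeR test C1qa did not pass (log2 fold change -1.12, SE 0.23, adjusted p = 0.089). Within Macrophage-like members it was 29.9, 34.2 and 27.6 against 28.6, 20.7 and 19.9, with overlap. Lyz2 over all members was 41.3, 30.2 and 22.9 against 38.7, 34.5 and 12.2 UMIs per 10000, and H2-Ab1 was 25.1, 12.5 and 28.9 against 17.4, 26.0 and 12.4.

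S100a9 had no UMI in the members of any αPD-1 sample, and 1034, 2804 and 4 UMIs in αPD-1 + corin replicates 1, 2 and 3. Against the 3 counts that a total of 0 allows over the αPD-1 members, it was at least 861-fold higher in the pooled αPD-1 + corin members. Replicate 3 had 0.216 UMIs per 10000 and so lay far below the other two. The gene was not in the edgeR test, whose filter asks for enough counts in 3 samples, and its level in T cell barcodes moved with the groups in the same order.

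**Figure D3:**
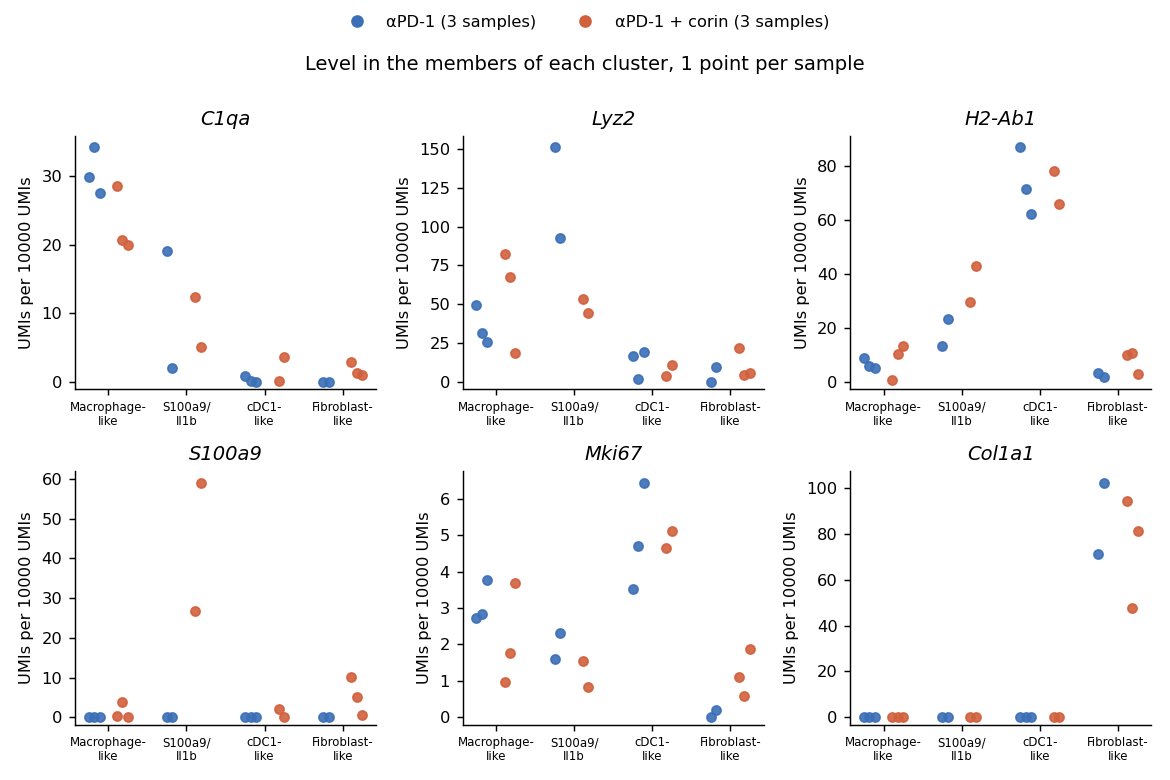
Level of C1qa, Lyz2, H2-Ab1, S100a9, Mki67 and Col1a1 (UMIs per 10000 UMIs, pooled over members) in each cluster, with 1 point per sample that had members in it. C1qa was highest in Macrophage-like members in both groups, H2-Ab1 in cDC1-like members, and Col1a1 was near 0 outside Fibroblast-like members.

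For tests of genes, UMIs were summed over all members of a sample and 6355 genes were fitted in edgeR's quasi-likelihood test. At an adjusted p under 0.05, 36 genes passed, 35 of them higher with αPD-1 + corin and 1 lower, or 0.566% of the genes tested (0.551% higher and 0.0157% lower). At an unadjusted p under 0.05 there were 700 genes. In 1155 genes (18.2%) all samples of 1 group lay above all of the other, 9.36% higher and 8.81% lower with the combination. Leaving out any 1 library moved the number that passed to between 1 and 79. A sum over members cannot tell a larger number of members of a cluster from more RNA per member.

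The gene with the smallest p was Saa3, serum amyloid A3, an acute-phase protein. It was at 19.0, 49.99 and 0 CPM (counts scaled to a common library total) with αPD-1 alone and at 3334, 4734 and 3507 CPM with the combination. Its log2 fold change was 6.91 (SE 0.56, adjusted p = 0.0032 in edgeR), and every αPD-1 + corin sample lay far above every αPD-1 sample. Lcn2, the iron-siderophore binder lipocalin 2, had 0 UMIs in all αPD-1 members and 145, 784 and 42 UMIs in the αPD-1 + corin members, or 259, 688 and 245 CPM. Against the 3 counts that a total of 0 allows it was at least 218-fold higher (adjusted p = 0.014). Dmkn, a protein known from skin epithelium, was likewise at 0 in all αPD-1 members and at least 34.7-fold higher in the other group, at 138, 59.6 and 58.4 CPM.

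Hp, haptoglobin, which binds free hemoglobin, rose from 11.4, 3.12 and 8.34 CPM to 216, 108 and 251 CPM (log2 fold change 5.00, SE 0.56, adjusted p = 0.014). Serpinb2, a plasminogen activator inhibitor, rose from 19.0, 4.17 and 0 to 307, 624 and 234 CPM, by 5.74 on the log2 scale. The neutrophil-attracting chemokine Cxcl5 rose by 6.74 and Cxcl12, the ligand of CXCR4 and a product of stromal cells, by 5.01. The other genes among the 10 largest rises were Sbsn (5.89), the protease Pcsk5 (5.24) and the chemoattractant Rarres2 (4.71), all as log2 fold changes. In each of these genes the lowest αPD-1 + corin sample was above the highest αPD-1 sample, which was a condition for their choice.

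The other genes that rose included the laminin chains Lama4 and Lamc1 (log2 fold changes 3.22 and 2.16), the fibulin Efemp1 (4.44), the protease Htra1 (3.12), Cav1 (3.29), Cavin3 (3.00), Ehd2 (2.98), and the extracellular superoxide dismutase Sod3 (4.53). In the matrix remodelling list 0 of 15 genes passed. The pattern recognition protein Ptx3 rose by 3.46 and the complement protease C1s1 by 2.63. Upp1, uridine phosphorylase, rose by 2.92, from 7.62, 11.5 and 16.7 CPM to 96.5, 85.1 and 70.1 CPM. Among genes with higher levels to begin with, S100a6 rose by 1.37 and the antiviral membrane protein Ifitm3 by 1.31. Leaving out samples or changing the fit ended the calls of S100a6 and Ifitm3 in 11 alternatives each and that of Saa3 in 1, always with the same sign.

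The lists of gene functions held a few of the genes that rose. Nlrp3, the sensor of the inflammasome, rose from 49.5, 28.1 and 41.7 CPM to 145, 173 and 87.7 CPM (log2 fold change 1.95, SE 0.34, adjusted p = 0.047). Csf1, the growth factor of macrophages, rose by 2.52, the costimulatory ligand Cd80 by 2.19 and the immediate early gene Egr1 by 2.01. Pooled Csf1 was at 333 CPM in Fibroblast-like and 3.51 CPM in Macrophage-like members. With αPD-1 alone and with the combination, pooled Egr1 was at 856 and 763 CPM in Fibroblast-like and 149 and 137 in cDC1-like members. It was at 107 and 141 CPM in Macrophage-like members and 75.9 and 670 in the S100a9/Il1b cluster. Hp was the 1 gene of the monocyte list that passed, and its pooled level was highest in Fibroblast-like members.

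The only gene that fell in this fit was Hist1h1b, a linker histone made in S phase. It was at 327, 204 and 325 CPM in the αPD-1 members and at 76.8, 103 and 64.3 CPM in the αPD-1 + corin members, a log2 fold change of -1.72 (SE 0.28, adjusted p = 0.041). It was the highest in cDC1-like members, at 428 CPM, with 206 CPM in Macrophage-like and 18.6 CPM in Fibroblast-like members. No αPD-1 + corin sample reached the lowest αPD-1 sample. Leaving out samples or changing the fit ended this call in 11 of 17 alternatives, always with the same sign.

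**Figure D4:**
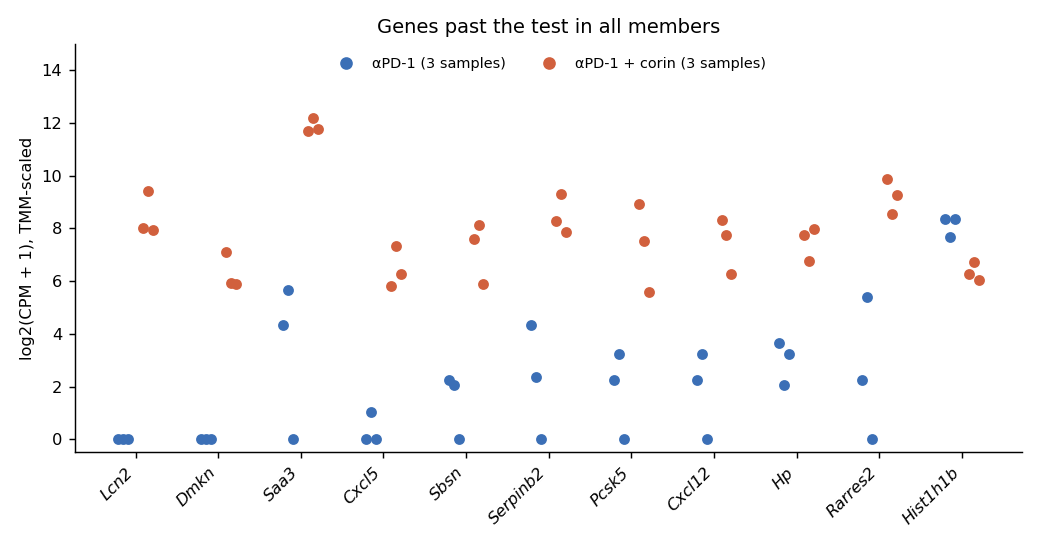
Level of the 10 genes with the largest rise and of the 1 gene that fell, as log2(CPM + 1) after TMM scaling over all members, with 1 point per sample. In all 11 genes the points of the groups do not overlap by the choice of the genes, and Lcn2 and Dmkn are at 0 in every αPD-1 sample.

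Most of the genes that passed had their highest pooled level in Fibroblast-like members. By pooled CPM, 30 of the 36 were highest in that cluster, 5 in the S100a9/Il1b cluster (Nlrp3, Cd80, Upp1, Ifitm3 and Gm17749), 1 in the cDC1-like cluster (Hist1h1b) and 0 in the Macrophage-like cluster. How many of all 6355 genes were highest in each cluster was not counted. The pooled level of Fibroblast-like members rests on 38 members of the combination and 8 of αPD-1 alone. A gene that is higher with the combination is thereby more likely to be highest there. Saa3 was at 8088 CPM in Fibroblast-like members and at 16.8 CPM in Macrophage-like members. When the Fibroblast-like members were left out, a step added after the data were seen, 3 of 4362 genes passed (0.0688%), all higher with corin. These were Upp1, Nlrp3 and 1 gene that is not reported here. Nlrp3 was then at 59.0, 31.1 and 44.9 CPM with αPD-1 alone and at 219, 253 and 117 CPM with the combination, a log2 fold change of 2.38 (SE 0.34), and Upp1 rose by 3.12 (SE 0.41).

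Within the Fibroblast-like members alone, 2 αPD-1 samples with 8 members could be set against 3 αPD-1 + corin samples with 38. In this fit 0 of 1840 genes passed in edgeR, with 195 at an unadjusted p under 0.05 (10.6%), while DESeq2 called 14 higher and 12 lower. The genes above were chosen on sums that hold these members, so their values here are a description. Saa3 was at 38.6 and 297 CPM with αPD-1 alone and at 6862, 17494 and 9137 CPM with the combination. Lcn2 was at 0 in both αPD-1 samples and at 478, 2336 and 640 CPM in the others. Col1a1 was at 12198 and 12804 CPM against 11805, 6377 and 10538 CPM, lower in all 3 but not past the threshold (log2 fold change -0.39). Of the 8 genes of the fibroblast list 5 were higher and 3 lower, with a median of 0.18, and 0 passed. C1qb had no UMI in the αPD-1 Fibroblast-like members, and 482, 234 and 533 CPM in the αPD-1 + corin ones. C1q in T cell barcodes of the same libraries moved with the groups too, from between 3.06 and 5.18 UMIs per barcode to between 5.84 and 11.8, while the Fibroblast-like members with corin held 11.8 to 15.9. Per 10000 UMIs the order turned, with 9.13, 4.51 and 6.94 in these members and 22.2, 11.3 and 10.3 in T cell barcodes of the same libraries.

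The 250 bases before the starts of Saa3 and Lcn2 are shown, from RefSeq on GRCm38.p6, because Saa3 had the smallest p over all members and Lcn2 the larger bound of the tested genes named above that were at 0 with αPD-1 alone. Saa3 lies on the minus strand of chromosome 7 with its window at chr7:46715677-46715926, and Lcn2 on the minus strand of chromosome 2 with its window at chr2:32387740-32387989. Capitals mark a match to TTGCNNAA, a sequence like that bound by C/EBP factors, searched on both strands and written 5′ to 3′ along the gene.

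Saa3: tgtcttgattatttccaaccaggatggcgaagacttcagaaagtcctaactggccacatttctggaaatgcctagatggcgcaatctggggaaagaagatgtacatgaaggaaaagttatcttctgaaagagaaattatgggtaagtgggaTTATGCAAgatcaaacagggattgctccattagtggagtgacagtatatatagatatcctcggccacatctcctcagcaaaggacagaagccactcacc

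Lcn2: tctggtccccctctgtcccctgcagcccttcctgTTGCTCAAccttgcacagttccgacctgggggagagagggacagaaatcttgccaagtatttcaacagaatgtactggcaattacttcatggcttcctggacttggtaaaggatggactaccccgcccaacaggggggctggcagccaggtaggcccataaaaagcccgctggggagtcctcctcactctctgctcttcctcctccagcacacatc

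The match of Saa3 is TTATGCAA, the motif on the other strand, at 99 to 92 bases before the start, and that of Lcn2 is TTGCTCAA, at 216 to 209 bases before it. Of the 35 genes that rose, 25 had a promoter in the table, and 8 of the 25 held this motif: C1s1, Dmkn, Efemp1, Lcn2, Ptx3, Saa3, Sbsn and Serpinb2. Over all genes with an entry 10.8% did, and 9.56% of all 32851 windows. A motif like that of NF-kappaB (GGGA, any 4 bases, then CC), was in 13 of the 25 and in 19.7% of all genes. Matches are letters in a window and were not tested as sites.

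Within the Macrophage-like members, 0 of 2021 genes passed edgeR's test and 0 passed DESeq2, with 52 (2.57%) and 26 genes at an unadjusted p under 0.05. The sums rested on 8, 40 and 4 members against 2, 16 and 5. The samples did not overlap in 168 genes (8.31%). Nlrp3 had the smallest p, at 73.7, 35.5 and 50.6 CPM with αPD-1 alone and 215, 162 and 158 CPM with the combination (log2 fold change 1.83, SE 0.41, adjusted p = 0.9997). Ifitm3, the interleukin 1 receptor antagonist Il1rn and the phagocytic receptor Mertk were the next genes with higher values, and H2afx, a histone variant, was the first with lower ones, none past the threshold. C1qa differed by -0.22 (SE 0.28), Lyz2 by 0.84 (SE 0.49), H2-Ab1 by 0.48 (SE 0.59) and Mki67 by -0.31 (SE 0.38) on the log2 scale. A change within Macrophage-like members was therefore not detectable with this number of members.

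When macrophages were instead taken as all C1q-positive members, 12 of 4351 genes passed, all higher with corin (0.276%). They were Sparc, Serpinh1, Hspg2, Col1a1, Bgn, Nid1, Acta2, Meg3, Upp1, Aebp1, Cald1 and Igfbp7, of which all but Meg3 and Upp1 are known from matrix-producing or contractile cells. Col1a1 had no UMI in the C1q-positive members of the αPD-1 samples and stood at 2259, 274 and 2768 CPM in those of the combination samples. The C1q-positive set held 75 Macrophage-like, 29 S100a9/Il1b, 9 Fibroblast-like and 2 cDC1-like members, a count added after the data were seen. In the Macrophage-like cluster, which had no collagen UMI, none of the 12 genes passed. Its fit tested 0 of the 8 genes of the fibroblast list, Col1a1 among them, so it could not have called Col1a1.

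The lists of gene functions are described by their counts beside all 6355 genes, whose median log2 fold change was -0.017. In the macrophage list 0 of 12 genes passed and the median was -0.52, with 9 of 12 lower. Of the 12, 5 were lower without overlap, beside 8.81% of all genes. All 9 genes of the monocyte list were higher, with a median of 1.64, and Hp passed. Of these genes, Fn1, Hp, Vcan and Plac8 had their highest pooled level in Fibroblast-like members, and the others in the S100a9/Il1b cluster. Fn1 stood at 50.5 UMIs per 10000 in the former and 7.96 in the latter, while Plac8 was close, at 10.1 and 9.37. All 7 fibroblast genes tested were higher, with a median of 2.75, and none passed. MHC class II genes had a median of -0.17 (0 of 10 passed), and interferon-gamma response genes one of -0.40 (0 of 19). Inflammatory mediators had a median of 0.68, with 15 of 19 higher and Nlrp3 past the threshold. In Macrophage-like members the median of the 12 macrophage genes was 0.018 and that of the 12 inflammatory mediators tested there was 0.73, beside -0.014 over all genes.

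A difference in the genes of corin's targets was not detectable with these samples. Kdm1a, which encodes LSD1, was at 30.5, 57.3 and 66.7 CPM with αPD-1 alone and at 64.3, 69.3 and 93.5 CPM with the combination (log2 fold change 0.51, SE 0.32, adjusted p = 0.62). Rcor1 differed by -0.29 (SE 0.28), Hdac1 by 0.16 (SE 0.22) and Hdac2 by 0.072 (SE 0.37). The groups overlapped in these 4 genes, and 0 of the 8 genes of the complex that were tested passed. Of 47 splicing factor genes 0 passed, and their median was -0.16.

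Cycle genes were frequent in members. The summed S phase and G2/M genes stood at 42.6, 48.4 and 59.5 UMIs per 10000 in the αPD-1 members and at 27.9, 28.5 and 49.5 in the αPD-1 + corin members. The means were 50.2 ± 8.59 and 35.3 ± 12.3 (SD, n = 3 each), with overlap (exact permutation test, p = 0.3). The S phase genes alone, at 14.2, 19.2 and 16.6 against 8.32, 13.1 and 14.1, did not overlap (exact permutation test, p = 0.1). Top2a, which untangles DNA at division, was at 2.59, 2.30 and 3.71 against 1.16, 1.19 and 1.56 UMIs per 10000, also without overlap. In the edgeR test 0 of 39 G2/M genes and 0 of 25 S phase genes passed, with 35 and 24 of them lower and medians of -0.59 and -0.50. Of the 11 histone genes tested 10 were lower, with a median of -0.86, and Hist1h1b passed.

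The share of members with a Mki67 UMI was compared at 2000 UMIs drawn from each member, since a deeper barcode shows more genes. It was 35.7%, 33.3% and 42.9% with αPD-1 alone and 21.6%, 21.1% and 45.5% with the combination (exact permutation test, p = 0.4). Without the draw it was 57.1%, 64.8% and 85.7% against 59.5%, 47.4% and 72.7%. Replicate 3 of the combination group, with 11 members, was the highest of the 6 samples at equal depth, and replicates 1 and 2 were the lowest. Mki67 itself had a log2 fold change of -0.80 (SE 0.38, adjusted p = 0.50).

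The clusters also differed in the level of their cycle genes. This is a description, since cycle genes other than Mki67 could enter the clustering. The median of S phase and G2/M genes was 75.7 UMIs per 10000 in cDC1-like members, 45.04 in Macrophage-like, 11.7 in S100a9/Il1b and 8.09 in Fibroblast-like members. At 2000 UMIs a Mki67 UMI was seen in 58.8%, 34.7%, 21.4% and 13.04% of these. The clusters with most cycle genes were those with a larger share with αPD-1 alone. Within Macrophage-like members the cycle genes were at 41.4, 51.5 and 63.9 UMIs per 10000 against 36.1, 50.5 and 47.3, and the Mki67 share was 25%, 35% and 50% against 50%, 25% and 60%, with overlap in both.

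Members were also set beside the 13004 barcodes with 600 to 4000 genes that passed the other limits. This is a description, because the number of genes chose the sides. At 2000 UMIs, 5.67% to 11.8% of the barcodes under 4000 genes had a Mki67 UMI in the 6 samples, against 21.1% to 45.5% of the members. After the shallower barcodes were left out, between 938 and 3580 barcodes per sample remained under the limit and all members remained above it. In every sample the members were above the barcodes under the limit.

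Among C1q-positive barcodes, the genes that were most evenly higher above 4000 genes in all 6 samples were Top2a, Cdk1, Pclaf, Birc5, Tpx2, Cenpe, Kif23, Mki67, Cks1b and Mad2l1, all genes of DNA replication or mitosis. For Top2a the log2 ratio (of CPM + 10) was 1.99, 1.19 and 1.26 with αPD-1 alone and 1.31, 1.34 and 1.56 with the combination. Of 43 G2/M genes 35 were higher in all 6 samples and 0 lower, and of 34 S phase genes 16 were higher and 0 lower. Over all 9644 genes 473 were higher in all 6 and 815 lower. Of the macrophage list 0 of 12 were higher in all 6 samples and 3 lower, and 0 of 10 MHC class II genes moved either way.

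The genes most evenly lower above 4000 genes were the eosinophil chemokine Ccl24, Rbpj, the nuclear effector of Notch, Def8, Mtss1, the nuclear RNA Malat1, the interferon-inducible genes Ifi213 and Oas2, Cd209f, Junos and Pid1. Ccl24 had log2 ratios of -1.52, -1.09 and -2.28 with αPD-1 alone and -1.52, -2.25 and -1.06 with the combination. Of 23 interferon-stimulated genes 8 were lower in all 6 samples and 0 higher, and of 11 genes of resident macrophages 6 were lower and 0 higher. C1q-positive barcodes above 4000 genes were 10, 41 and 4 with αPD-1 alone and 21, 32 and 7 with the combination. They were 2.17%, 6.71% and 1.04% of all C1q-positive barcodes with αPD-1 and 0.755%, 3.22% and 0.853% with corin, with overlap (exact permutation test, p = 0.5).

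**Figure D5:**
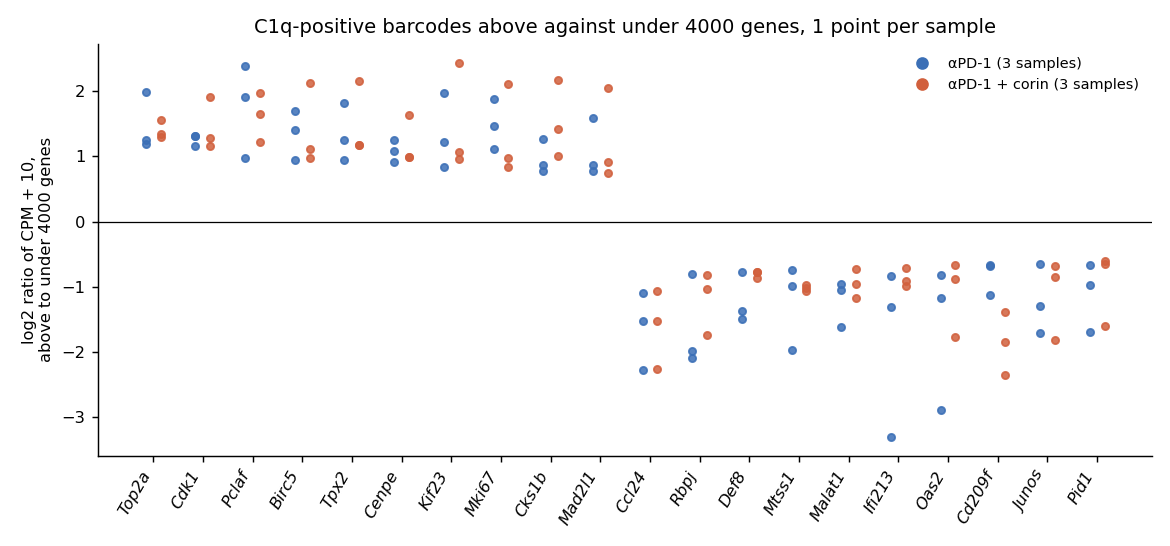
Log2 ratio of CPM + 10 between C1q-positive barcodes above and under 4000 genes, for the 10 genes most evenly higher and the 10 most evenly lower, with 1 point per sample. All 6 points of each gene lie on the same side of 0 by the choice of the genes, and the genes on the left are genes of replication and mitosis.

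The treatment effect was compared between C1q-positive barcodes above and under 4000 genes by an interaction term in edgeR. At an unadjusted p under 0.05 there were 693 of 9644 genes (7.19%). After adjustment 3 passed, all with a more positive effect above the limit (0.0311%): Sparc, the transcription factor Ebf1, and Chil3, a chitinase-like protein of myeloid cells. Sparc was at 0.421 CPM with αPD-1 and 1242 CPM with αPD-1 + corin above the limit, and at 5.65 and 57.1 CPM under it. Chil3 overlapped between the groups in its ratio of above to under. With both sums of a sample thinned to the same total, 0 of 5147 genes passed in edgeR and 372 had an unadjusted p under 0.05.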

How the data were processed

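Reads were aligned by the authors with Cell Ranger 8.0 (GRCm39, from the submitters' processing notes), and the deposited values are raw UMI counts of each gene in each called barcode. The members were the barcodes that met the gate; the members, the gene lists and the comparisons were chosen with earlier results of these data known. Members of all samples were clustered together (Seurat 5.3.0, SCTransform, 20 principal components, resolution 0.8, 2904 variable genes after the cell type markers were left out). A name needed 3 markers in at least 10% of the cluster's cells and 1.5 times the mean of the others. Named genes were the 10 largest rises and falls at an adjusted p under 0.05, at least 20 CPM and no overlap, the lineage genes, the CoREST genes and the called gene of each list; the other genes that passed, and those with the smallest p in Macrophage-like members, were chosen after their values were seen. UMI counts were summed per sample and tested with edgeR 4.0.16 (TMM, filterByExpr, quasi-likelihood test, Benjamini-Hochberg). The Macrophage-like fit was planned for samples with at least 20 such members, but this left 1 sample, so all 6 were used. Log2 fold changes carry their standard error. For shares, sample values entered an exact permutation test (two-sided). Intervals are Wilson intervals and cover counting error only. Scrublet ran in scanpy 1.11.5, and the fits were tested on simulated data. Gene identifiers matched GENCODE vM39 for 31674 of 32285 genes. Alternatives were RLE size factors, no filter, DESeq2 1.42.0, a replicate block, samples left out, other limits and clusterings. The study's MAST test and DoubletFinder were not used here.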

Additional observations from a re-analysis of the deposited data

Results flagged for a closer look

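In 3 genes the effect of treatment differed between C1q-positive barcodes above and under 4000 genes, by a test of the difference itself (edgeR interaction term with a block for each sample, 9644 genes). For Sparc, a matrix protein, the difference was 6.85 on the log2 scale (SE 0.74), and the log2 ratio of above to under was -0.48, -0.50 and -0.77 with αPD-1 alone against 4.47, 3.36 and 4.22 with the combination of αPD-1 + corin. For Ebf1, a factor known from B cells and also made by stromal cells, it was 11.8 (SE 1.21), a value that depends on the prior count because Ebf1 had no UMI in the αPD-1 C1q-positive members. Its level was 26.5 and 8.96 CPM under the limit and 0 and 63.7 CPM above it, with αPD-1 first. For Chil3 it was 3.67 (SE 0.64), with levels of 122 and 84.7 CPM under the limit and 4.43 and 56.7 CPM above it. The log2 ratio of above to under did not overlap between the groups for Sparc and Ebf1. It did for Chil3, at -2.60, -2.36 and -4.37 with αPD-1 alone and -0.33, -0.11 and -2.52 with the combination. Collagen genes moved with Sparc and Ebf1 in the same barcodes, at 4.47, 2.02 and 3.71 with the combination for the median log2 ratio of the 4 fibroblast genes tested, and their part in the result was not tested.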

How the results depend on the processing

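The number of genes that passed in all members (36) was 610 with no filter on low counts, 109 in DESeq2, 62 with the replicate block, 22 without the top Scrublet scores, 1 at a limit of 5000 genes, 3 without Fibroblast-like members, 0 in Fibroblast-like members only, and 1 to 79 with each sample left out in turn (3, 1 and 1 without αPD-1 replicates 1, 2 and 3, and 11, 17 and 79 without αPD-1 + corin replicates 1, 2 and 3). In Macrophage-like members (0) it was 24 with no filter, 1 with equal numbers of members per sample and 12 in C1q-positive members. The interaction (3) gave 0 after thinning and 4 to 18 with samples left out. The replicate numbers did not pair the samples (correlations of 0.071, -0.14 and 0.0043), and the replicate block left the Macrophage-like count at 0. The member share differed by 0.130 and 0.0423 points at limits of 5000 and 6000 genes, or 0.0464 and 0.0132 of all barcodes, and by -0.979 to 0.580 and -0.241 to 0.233 with samples left out. The Mki67 share differed by 8.33 points in Macrophage-like members. Directions of genes that did not pass turned as follows, in log2 units. Without Fibroblast-like members Lyz2 was 0.34, H2-Ab1 0.25, Hdac1 -0.018 and Hdac2 -0.067. In Fibroblast-like members only C1qa was 8.10, Lyz2 1.12, H2-Ab1 1.54 and Mki67 2.87. Lyz2 was 0.32 with equal numbers, 0.46 at 5000 genes and 0.061 without members rich in Ighg1 and Igkc, and Hdac2 was -0.023 in DESeq2. With samples left out Lyz2 ran from -0.35 to 0.30, H2-Ab1 from -0.45 to 0.075 and Hdac2 from -0.37 to 0.24. In Macrophage-like members C1qa was 0.48 with equal numbers and H2-Ab1 ran from -0.012 to 0.91 with samples left out. At resolution 0.4, 32 of the 42 S100a9/Il1b members joined all 17 cDC1-like ones in a cluster that took the name Neutrophil-like by its markers, and the other 10 became Macrophage-like. Without top Scrublet scores 30 S100a9/Il1b, 16 cDC1-like and 2 Fibroblast-like members did so, so neither setting gave a share for these clusters. A fit without Macrophage-like clusters led by cycle genes was not run, since the only such cluster was not led by them. Depth limits the αPD-1 samples most, where replicates 1 and 3 had 14 and 7 members. The settings on Fibroblast-like members, on Ighg1 and Igkc and on large-share genes were chosen after seeing the data.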

Other observations

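A few transcripts took a large share of the UMIs of some members. Cdk8, a kinase of the Mediator complex, had a median of 0.891% of a member's UMIs and reached 38.3% in 1 member, with 13 of 180 members at 5% or more, 8 of them Macrophage-like and 5 Fibroblast-like. Gm42418, a transcript that overlaps a ribosomal RNA gene, had a median of 4.30% and reached 37.2%, with 72 members at 5% or more. Lars2, a mitochondrial leucyl-tRNA synthetase, reached 11.7% in 1 member. The same genes reached 60.3%, 81.0% and 29.0% in barcodes under 4000 genes. Without these 3 genes and Gm26917, 36 genes passed in all members and 0 in Macrophage-like members, as with them.

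Genes of endothelial cells were high in part of the Fibroblast-like members. The endothelial list stood at 13.8 UMIs per 10000 in the Fibroblast-like members of αPD-1 + corin replicate 2 and between 0.482 and 3.38 in the other 4 samples that had such members.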
